A study of Homo sapiens with 6 samples.

Results

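The genes described here are 49 genes of DNA replication and S phase, found by matching their symbols in the deposited table, in which they were 49 of 29185 genes. The study silenced KLF5, a zinc finger transcription factor, in SKOV3, an established human ovarian cancer cell line, and compared the cells with control SKOV3 cells by RNA-seq. The 3 sh-KLF5 libraries came from SKOV3 cells that carried a stable knockdown construct in the pLKO.1-EGFP-Puro vector and had been selected with puromycin, and their genotype is labelled KLF5 knockdown. The 3 sh-NC libraries came from the SKOV3 control cells, whose genotype is labelled WT. Their titles say only NC, and no source used here says whether these cells carried a control vector or were selected with puromycin. An effect of vector or selection thus cannot be told apart from the silencing. No source used here names the hairpin sequence or says whether the cells were a pool or 1 clone, so that the silencing and the line that carries it cannot be told apart. No source says that the 3 libraries of a group came from separate cultures, and the p-values then measure only the spread between these libraries, which may be technical.

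Replication is prepared in G1, when the origin recognition complex, CDC6 and CDT1 load the MCM2-7 helicase onto DNA, a step called licensing. In S phase the DBF4-dependent kinase CDC7 and the cyclin E kinase fire the licensed origins, CDC45 and the GINS complex join MCM2-7 to form the active helicase, and the primase, the polymerases, the sliding clamp PCNA and its loader follow at the fork. Most of these genes are transcribed in late G1 and S under E2F transcription factors, so that their mRNA is widely used as a sign of proliferation, and tumour cells often express them at high levels.

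The recovered totals were between 15852319 and 17543896 reads per library, and the fewest reads on any of the 49 genes in any library were 176, so that all 49 were tested. The silenced gene checked the labels, since KLF5 had normalized counts of 4371, 4425 and 4494 in sh-NC and 1745, 1439.9 and 1436 in sh-KLF5, a log2 fold change of -1.53 ± 0.12 (SE) (limma, adjusted p = 2.47e-07). Mitochondrial genes took 4.78% to 5.62% of reads, with overlapping groups. Of 6 epithelial and SKOV3 markers, KRT8 (-1.17, adjusted p = 4.35e-05) and KRT18 (-0.64, adjusted p = 0.00343) were lower in sh-KLF5, KRT19 had at most 16.5 normalized counts, and ERBB2, EPCAM and PAX8 were detected in every library. Of the leukocyte and endothelial markers, PTPRC, VWF and CDH5 had at most 10.2 normalized counts, whereas CD14 (148.8 to 379) and PECAM1 (31.1 to 79.6) were detected in every library and did not pass the threshold in limma, while edgeR and DESeq2 called 1 of these, CD14, higher. The summed normalized counts of the marker list were 229 to 289.6 in sh-NC and 225 to 453 in sh-KLF5. The part of these markers in the results that follow was not tested.

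In KLF5-silenced cells, 23 of the 49 replication genes were down-regulated and 0 were up-regulated (limma on log2(normalized count + 1), Benjamini-Hochberg adjusted p under 0.05 over 15803 genes). The 23 were 46.9% of the members, beside 6.85% of all tested genes that were lower by the same rule, and 5.88% of the 9027 tested genes whose mean level lay within the members' range. For higher genes the share over all tested genes was 6.04%. At an unadjusted p under 0.05, 32 members were lower and 1, CCNE1, was higher, beside 13.4% of all tested genes lower and 12.8% higher. By adjusted p, edgeR called 24 members lower and 1 higher, beside 6.87% and 6.37% of all tested genes, and DESeq2 called 26 lower and 1 higher, beside 7.47% and 6.9%. The changes were small: only CDC45 fell by more than 1 on the log2 scale, whereas 3.37% of all tested genes fell and 1.9% rose past this fold threshold. The median log2 fold change of the members was -0.38, beside -0.0023 over all tested genes. In these bulk libraries, fewer cells in S phase and less of these mRNAs per cell cannot be told apart.

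Of the 49 genes, 46 had a negative log2 fold change, beside 7951 of the 15803 tested genes, and the exceptions were CCNE1, GMNN and RFC4. In 34 genes every sh-KLF5 library lay below every sh-NC library, beside 15.9% of all tested genes, and in 1 gene, CCNE1, every sh-KLF5 library lay above, beside 15.4%. The groups overlapped in the other 14. TK1 was the only gene past the threshold whose groups overlapped. By role, 8 of 12 licensing genes and 6 of 8 firing genes were lower, with median log2 fold changes of -0.42 and -0.52, whereas 1 of 6 clamp and clamp loader genes and 1 of 8 polymerase and primase genes were lower, with medians of -0.16 and -0.23. The difference between the roles was not tested.

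**Figure D1:**
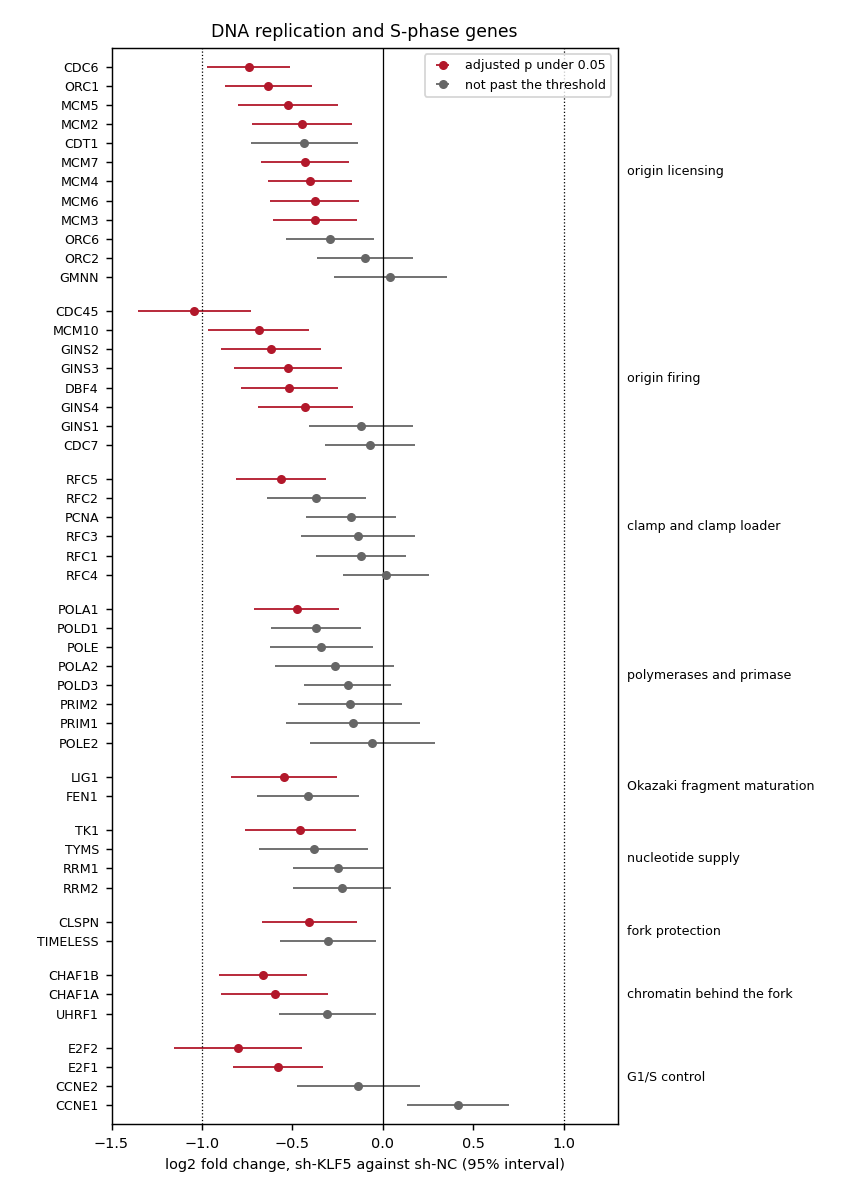
Log2 fold change of each of the 49 genes in sh-KLF5 against sh-NC cells (points, n = 3 libraries per group) with its 95% interval from limma (lines), in blocks by role, and dotted lines at -1 and 1. The 23 genes in red have an adjusted p under 0.05 and all lie left of 0, and CDC45 is the only one left of -1.

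The 3 sh-KLF5 libraries did not show the difference to the same extent. Relative to the mean of sh-NC, the median of the 49 genes was -0.47 in sh-KLF5 library 1, -0.41 in library 2 and -0.24 in library 3 on the log2 scale, while the medians of the sh-NC libraries lay between -0.02 and 0.06. The 49 genes together took 0.542%, 0.558% and 0.575% of all reads in the controls (replicates 1 to 3) and 0.423%, 0.432% and 0.447% after silencing, so that the groups did not overlap. Library 1 held the lowest of the 6 values in 24 genes, library 2 in 18 and library 3 in 3. Since the p-values rest on these 6 libraries, the count of down-regulated members changed when a library was left out: it was 14, 11 and 10 without sh-NC library 1, 2 or 3, 27 without sh-KLF5 library 1, 15 without sh-KLF5 library 2 and 25 without sh-KLF5 library 3. The count of lower genes over all tested genes, 1083 with all libraries, changed as well. It was 734, 699 and 745 without sh-NC library 1, 2 or 3, and 1514, 927 and 1146 without sh-KLF5 library 1, 2 or 3. The median log2 fold change of the members stayed between -0.44 and -0.32 in these 6 fits. CDC45, CDC6, ORC1, MCM10, GINS2, RFC5, CHAF1B, E2F1 and E2F2 passed the threshold with these settings and in each of the 15 alternative fits.

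**Figure D2:**
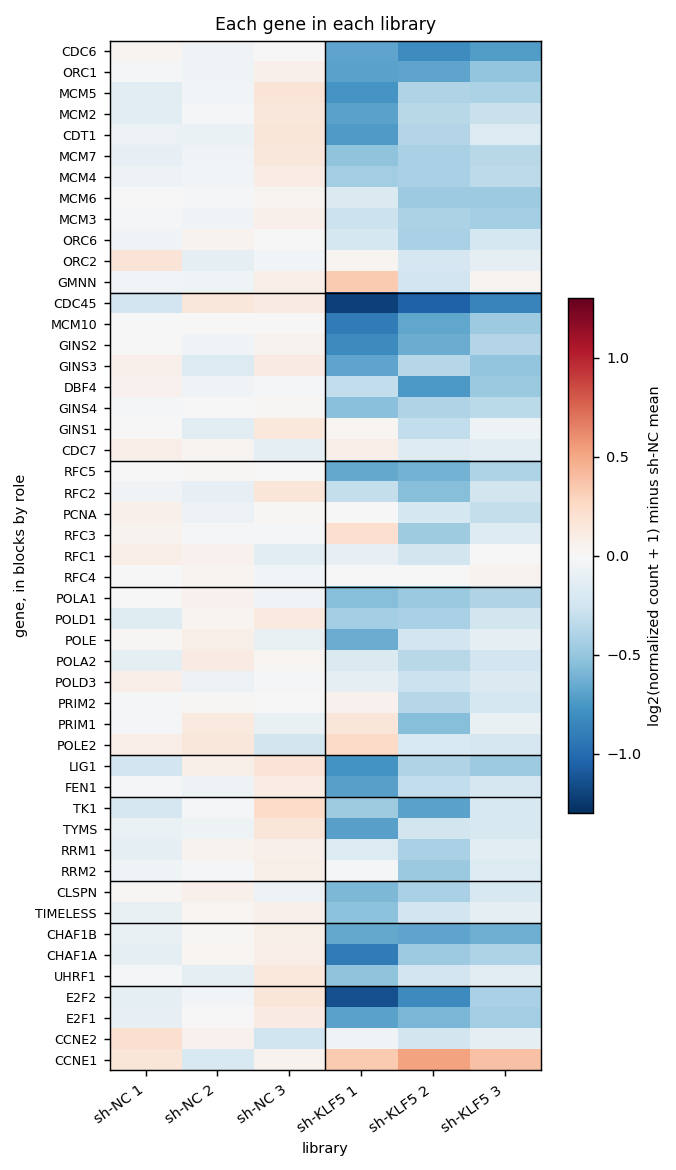
Difference of log2(normalized count + 1) from the sh-NC mean for each gene (rows, in blocks by role) in each library (columns). Blue stands for lower values, and blue is deepest in sh-KLF5 libraries 1 and 2, for example in CDC45, E2F2 and MCM10, while CCNE1 is the one gene that is red in all 3 sh-KLF5 libraries.

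The promoters of the replication genes were searched in RefSeq windows from 250 bases before to 50 bases after an annotated start (GRCh38.p14), which were found for 44 of the 49 genes, and those of MCM4, MCM5, GINS4, POLD3 and CCNE2 were not among them. The letters TTTNNCGC, in which N is any base, were used as a loose pattern for E2F sites, and not every form of it need be one. They stood on either strand in 26 of the 44 genes (59.1%), beside 8.23% of all 27305 genes with a promoter and 12.9% of the 10602 tested genes with a promoter. The other tested genes, of 15803 in all, had no window and are missing from every share given here. Among the 730 tested genes with a promoter that fell, with the members left out, the share was 12.3%. The CCAAT box, bound by NF-Y, was found in 59.1% of the members, 39.7% of all genes and 42.8% of the tested genes. The letters CCNCNCCC, which KLF and SP factors bind, stood in 75% of the members, which lies above the 58.9% of all genes and below the 79.5% of the tested genes. Among the tested genes that fell, with the members left out, the shares were 44.2% for the CCAAT box and 83% for the KLF and SP letters. The median GC content was 65.67% in the member windows and 58.67% in all windows, and its part in these shares was not tested. A match describes the letters of a window and not a bound site.

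Within the 44 genes, E2F letters stood in 13 of the 20 members that fell and in 13 of the 24 that did not pass the threshold, so that both kinds are shown. The CCAAT box stood in 14 of the 20 and 12 of the 24, and the KLF and SP letters in 17 of the 20 and 16 of the 24. These differences were not tested. The following lines give the 130 bases before the start of 5 genes with the E2F letters in capitals, read along the strand of the gene. At most 23 of these bases lie in an exon of GENCODE release 29. E2F1 (chr20:33686386-33686515, - strand), E2F2 (chr1:23531234-23531363, - strand) and MCM6 (chr2:135876444-135876573, - strand) fell after silencing, and ORC6 (chr16:46689529-46689658, + strand) and POLE (chr12:132687343-132687472, - strand) did not pass the threshold.

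E2F1: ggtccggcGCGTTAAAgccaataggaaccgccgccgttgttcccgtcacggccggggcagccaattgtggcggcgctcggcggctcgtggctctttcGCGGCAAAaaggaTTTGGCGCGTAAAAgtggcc
E2F2: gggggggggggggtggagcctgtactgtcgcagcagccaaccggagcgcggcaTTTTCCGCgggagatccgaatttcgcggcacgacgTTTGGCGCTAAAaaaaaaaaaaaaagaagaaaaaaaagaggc
MCM6: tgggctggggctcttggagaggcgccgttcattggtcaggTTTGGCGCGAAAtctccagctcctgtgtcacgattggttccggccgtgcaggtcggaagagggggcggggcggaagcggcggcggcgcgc
ORC6: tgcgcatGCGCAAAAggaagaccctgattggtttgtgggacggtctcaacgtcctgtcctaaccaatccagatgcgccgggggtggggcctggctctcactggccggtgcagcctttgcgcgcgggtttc
POLE: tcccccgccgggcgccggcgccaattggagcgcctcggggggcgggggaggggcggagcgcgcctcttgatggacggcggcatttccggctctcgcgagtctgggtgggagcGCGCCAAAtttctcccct

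E2F1 held 4 matches in this stretch, E2F2 held 3 and MCM6 held 2, and matches on opposite strands that share bases, which occur in each of these 3 genes, were counted separately. ORC6 and POLE held 1 match each, both on the opposite strand. A second set shows the CCAAT box in capitals on either strand, in MCM10 (chr10:13161428-13161557, + strand) and CHAF1A (chr19:4402510-4402639, + strand), which fell, and in GINS1 (chr20:25407543-25407672, + strand), which did not pass the threshold.

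MCM10: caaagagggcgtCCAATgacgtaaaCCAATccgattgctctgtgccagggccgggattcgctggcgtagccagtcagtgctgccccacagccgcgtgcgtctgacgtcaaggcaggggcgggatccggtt
CHAF1A: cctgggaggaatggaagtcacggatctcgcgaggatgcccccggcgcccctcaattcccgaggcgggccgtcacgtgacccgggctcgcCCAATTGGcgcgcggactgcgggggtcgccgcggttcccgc
GINS1: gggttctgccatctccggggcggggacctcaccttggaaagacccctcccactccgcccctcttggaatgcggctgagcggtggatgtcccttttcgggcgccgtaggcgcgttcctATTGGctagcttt

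MCM10 held 2 CCAAT boxes on the strand of the gene, the 2 of CHAF1A overlapped each other on opposite strands, and GINS1 held 1 on the opposite strand. The 3 searches were run separately, so that matches of different motifs may share bases.

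**Figure D3:**
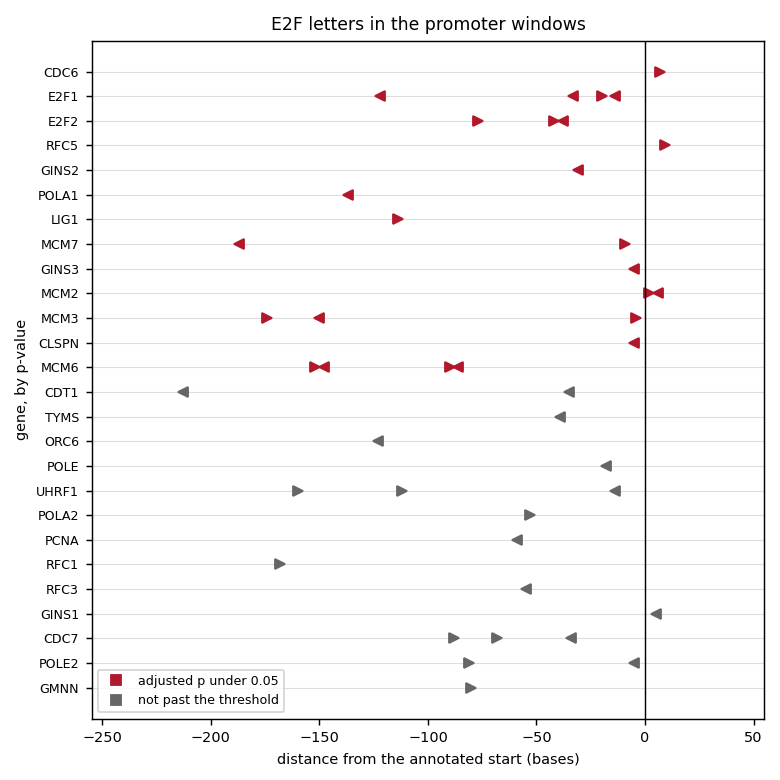
Positions of the letters TTTNNCGC in the windows of the 26 members that hold them, as distance in bases from the annotated start, with triangles pointing right for the strand of the gene and left for the opposite strand. Genes are ordered by p-value, and matches stand in 13 genes with an adjusted p under 0.05 (red) and 13 without (grey), most of them before the start.

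Of the licensing genes, CDC6 and ORC1 changed the most. CDC6 (ENSG00000094804, chromosome 17, 40287633 to 40304657, + strand), the ATPase that loads the helicase together with the origin recognition complex, had normalized counts of 1863, 1759.8 and 1824 in sh-NC and 1129, 1032 and 1095 in sh-KLF5, and the means were 1816 ± 52.1 for sh-NC against 1086 ± 49.1 for sh-KLF5 (SD, n = 3). All 3 sh-KLF5 libraries lay close together and well below all sh-NC libraries, with 59.8% of the control level left (log2 fold change -0.74 ± 0.11 (SE), adjusted p = 1.96e-04). ORC1 (ENSG00000085840, chromosome 1, 52372829 to 52404459, - strand), the largest subunit of the origin recognition complex and the one that varies over the cell cycle, had normalized counts of 1311, 1281 and 1394 in sh-NC and 817, 828 and 928 in sh-KLF5. The log2 fold change of ORC1 was -0.63 ± 0.11 (SE) (adjusted p = 0.00116), and its groups did not overlap either. The other origin recognition subunits among the members did not pass the threshold. ORC6 had normalized counts of 1078, 1147 and 1111 in sh-NC and 946, 828 and 952 in sh-KLF5, which did not overlap (log2 fold change -0.29, adjusted p = 0.110), and ORC2 had 946, 769.6 and 819 in sh-NC and 864, 723 and 777 in sh-KLF5, which did (log2 fold change -0.10, 95% interval -0.37 to 0.17).

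MCM2 to MCM7, the 6 subunits of the helicase, were all down-regulated, by a similar amount, with log2 fold changes from -0.52 in MCM5 to -0.38 in MCM3. MCM5 had normalized counts of 3237, 3482 and 4011 in sh-NC and 2090.4, 2709 and 2682 in sh-KLF5 (log2 fold change -0.52 ± 0.13 (SE), adjusted p = 0.0129). MCM2 had 3965, 4325 and 4845 in sh-NC and 2691, 3392 and 3581 in sh-KLF5 (-0.45 ± 0.13 (SE), adjusted p = 0.0316). In both, sh-KLF5 library 1 was the lowest library by a wide margin. MCM7 had 6689, 6982 and 7972 in sh-NC and 5023, 5380.3 and 5611 in sh-KLF5 (-0.43 ± 0.11 (SE), adjusted p = 0.0194). MCM4 had 9744, 9959 and 10864 in sh-NC and 7448, 7596 and 8054 in sh-KLF5 (-0.40 ± 0.11 (SE), adjusted p = 0.0227), the highest counts of the 49 genes. For these 2 genes the sh-KLF5 libraries were close to each other and sh-NC library 3 was the highest. MCM3 had 4074, 3979 and 4294 in sh-NC and 3397, 3093 and 3032 in sh-KLF5 (-0.38 ± 0.11 (SE), adjusted p = 0.0323). MCM6 had 2578, 2533 and 2651 in sh-NC and 2268, 1869 and 1866 in sh-KLF5 (-0.38 ± 0.12 (SE), adjusted p = 0.0421). MCM3 and MCM6 showed the reverse order within sh-KLF5, with library 1 the highest and not the lowest. In each of the 6 genes the groups did not overlap.

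The calls of MCM2 to MCM7 depended on which libraries entered the fit. Without sh-NC library 2 none of the 6 passed the threshold (adjusted p from 0.0570 to 0.141), and without sh-NC library 3 none did either (0.0937 to 0.159). MCM5 alone passed without sh-NC library 1, MCM5 and MCM7 passed without sh-KLF5 library 2, and the 4 genes other than MCM3 and MCM6 passed without sh-KLF5 library 3. All 6 passed without sh-KLF5 library 1. The log2 fold changes stayed between -0.59 and -0.32 in all of these fits. Each of the 6 genes had at least 1861 reads in every library. For MCM2, 23.6% of the exonic bases overlap exons of other genes on the opposite strand, and for MCM7 8.94% do. Whether reads were counted by strand is not given in the sources used here.

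CDT1, the licensing factor that recruits the helicase, had normalized counts of 1992, 1978 and 2344 in sh-NC and 1259.8, 1608 and 1851 in sh-KLF5 and missed the threshold (log2 fold change -0.43 ± 0.14 (SE), adjusted p = 0.0529), although its groups did not overlap and it passed in 5 of the 15 alternative fits, DESeq2 among them. GMNN encodes geminin, the inhibitor that binds CDT1 and blocks licensing again once S phase has begun. GMNN had 562, 555 and 612 in sh-NC and 731, 483 and 589.6 in sh-KLF5, with overlapping groups and sh-KLF5 library 1 the highest of all 6 (log2 fold change 0.04, 95% interval -0.27 to 0.35).

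The genes of origin firing held the largest change of the group. CDC45 (ENSG00000093009, chromosome 22, 19479459 to 19520612, + strand), which joins MCM2-7 in the active helicase, had normalized counts of 568, 749.9 and 729 in sh-NC and 290.5, 327 and 373 in sh-KLF5, and the means were 682 ± 99.5 for sh-NC against 330.2 ± 41.3 for sh-KLF5 (SD, n = 3). Every sh-KLF5 library was below every sh-NC library, and 48.4% of the control level was left (log2 fold change -1.04 ± 0.15 (SE), adjusted p = 1.26e-04). Without 1 library the log2 fold change of CDC45 ranged from -1.17 to -0.95, so that it no longer passed the fold threshold of 1 without sh-NC library 2, sh-NC library 3 or sh-KLF5 library 1. MCM10 (ENSG00000065328, chromosome 10, 13161554 to 13211104, + strand), which is needed to activate the assembled helicase, had normalized counts of 768, 774 and 770.3 in sh-NC and 411, 481 and 553 in sh-KLF5. The sh-NC libraries of MCM10 were nearly equal, while the sh-KLF5 libraries were spread more widely, all of them lower (log2 fold change -0.69 ± 0.13 (SE), adjusted p = 0.00189).

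GINS is a complex of 4 subunits that binds MCM2-7 together with CDC45, and 3 of its 4 genes were down-regulated. GINS2 (ENSG00000131153, chromosome 16, 85676198 to 85690073, - strand) had normalized counts of 949, 920.3 and 976 in sh-NC and 535, 605 and 729 in sh-KLF5 (log2 fold change -0.62 ± 0.13 (SE), adjusted p = 0.00408). GINS3 had 468, 397 and 483 in sh-NC and 278, 345 and 313 in sh-KLF5 (-0.52 ± 0.14 (SE), adjusted p = 0.0212). GINS4 had 569.8, 581 and 585 in sh-NC and 398, 441 and 453 in sh-KLF5 (-0.43 ± 0.12 (SE), adjusted p = 0.0301). The groups did not overlap in any of these 3 genes. GINS1 had 548, 499 and 605 in sh-NC and 559, 441 and 523 in sh-KLF5, with overlapping groups and a log2 fold change of -0.12 (95% interval -0.41 to 0.17, adjusted p = 0.622). Its interval overlaps those of the other subunits, and whether GINS1 differed from them was not tested. GINS3 lost its call without sh-NC library 1 (adjusted p = 0.104) or 3 (0.105), and GINS4 without sh-NC library 1 (0.106), 2 (0.126) or 3 (0.0935) or sh-KLF5 library 2 (0.0588). GINS4 also lost its call with all libraries and no filter on low counts (adjusted p = 0.0548). For GINS4, 23.6% of the exonic bases overlap exons on the opposite strand, and for GINS3 10.9% do.

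DBF4 and CDC7 form the kinase that fires licensed origins, DBF4 being its activating subunit. DBF4 had normalized counts of 1351, 1265 and 1293 in sh-NC and 1044, 775 and 933 in sh-KLF5, in which sh-KLF5 library 2 was the lowest, and its groups did not overlap (log2 fold change -0.52 ± 0.13 (SE), adjusted p = 0.0115). Its call was lost without sh-NC library 1 (adjusted p = 0.0661) or 3 (0.0512) and without sh-KLF5 library 2 (0.0609). CDC7, the catalytic subunit, had 1358, 1312 and 1184 in sh-NC and 1361, 1144 and 1169 in sh-KLF5, with overlapping groups (log2 fold change -0.07, 95% interval -0.32 to 0.18).

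**Figure D4:**
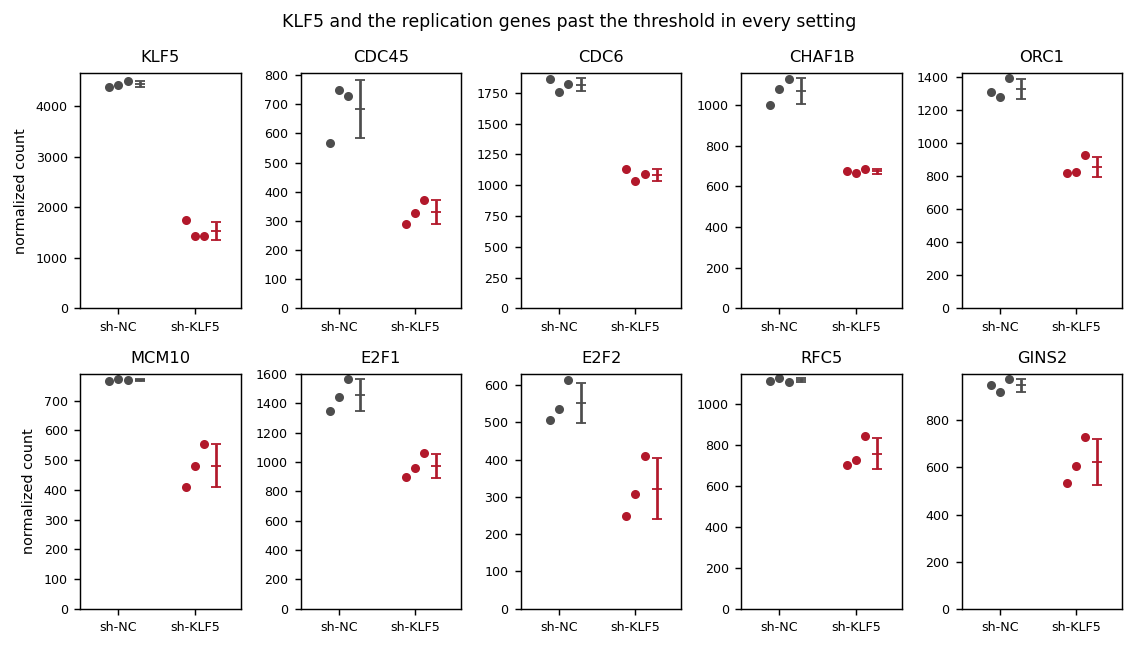
Normalized counts of KLF5 and of the 9 replication genes that passed the threshold in every fit, with 1 point per library (replicates 1 to 3 from left to right) and the mean with its SD beside the points (n = 3 per group). All axes start at 0, and in every panel the 3 sh-KLF5 points lie below the 3 sh-NC points.

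At the fork, 1 of the 6 genes of the sliding clamp and its loader was lower. PCNA, the ring that holds polymerases on DNA, had normalized counts of 2253, 2044 and 2177 in sh-NC and 2163, 1839.7 and 1742 in sh-KLF5. The groups of PCNA overlapped, since sh-KLF5 library 1 lay above sh-NC library 2, and its log2 fold change of -0.18 did not pass the threshold (95% interval -0.43 to 0.07, adjusted p = 0.370). The clamp loader, replication factor C, opens the ring around DNA with 5 subunits, and 1 of the 5 genes was lower. RFC5 (ENSG00000111445, chromosome 12, 118013588 to 118033130, + strand) had 1114, 1128 and 1109.9 in sh-NC and 702, 729 and 846 in sh-KLF5, without overlap (log2 fold change -0.56 ± 0.12 (SE), adjusted p = 0.00377). RFC2 had 747, 718 and 861 in sh-NC and 624, 528 and 653 in sh-KLF5, also without overlap, and did not pass the threshold (-0.37, adjusted p = 0.0759). RFC4, by contrast, had 749, 762 and 725 in sh-NC and 749, 742 and 771 in sh-KLF5 and was nearly equal in all 6 libraries. RFC1 had 1763, 1717 and 1506 in sh-NC and 1535, 1402 and 1647 in sh-KLF5, and RFC3 had 1031, 994 and 981 in sh-NC and 1167, 725 and 892 in sh-KLF5, with overlapping groups in both. The log2 fold changes of RFC1, RFC3 and RFC4 were -0.12, -0.14 and 0.02, and the upper ends of their 95% intervals were all above 0. For RFC5, 10.6% of the exonic bases overlap exons of other genes.

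Of the polymerases and primase, POLA1 was the only gene past the threshold in limma with these settings. POLA1, the catalytic subunit of polymerase alpha, which extends the RNA primers, had normalized counts of 1676, 1748 and 1631 in sh-NC and 1147, 1202 and 1285 in sh-KLF5 and no overlap (log2 fold change -0.48 ± 0.11 (SE), adjusted p = 0.00809). It lost its call without sh-NC library 2 (adjusted p = 0.0693). The other 3 genes of the polymerase alpha-primase complex did not pass. POLA2 had 201, 237 and 224 in sh-NC and 194, 171 and 185 in sh-KLF5, the lowest counts per length of the group, and did not overlap (log2 fold change -0.27, adjusted p = 0.306). PRIM1 had 284, 314 and 269.5 in sh-NC and 321, 197 and 271 in sh-KLF5, and PRIM2 had 496, 505 and 499 in sh-NC and 519.8, 386 and 427 in sh-KLF5. In both primase genes sh-KLF5 library 1 was the highest and library 2 the lowest of all 6. Of the leading strand and lagging strand polymerases, the log2 fold changes of POLD1, POLD3, POLE and POLE2 were -0.37, -0.19, -0.34 and -0.06, and POLD1 came closest to the threshold (adjusted p = 0.0511). POLD1 passed it in 7 alternative fits, edgeR and DESeq2 among them. The groups did not overlap in POLD1, POLD3 and POLE, and overlapped in POLE2. Exons of other genes cover 35.1% of the exonic bases of POLA2 and 21.6% of those of PRIM1.

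LIG1 and FEN1 finish the fragments of the lagging strand, FEN1 by trimming the flap and LIG1 by sealing the nick. LIG1 had normalized counts of 1241, 1559 and 1655 in sh-NC and 861, 1121 and 1066 in sh-KLF5 (log2 fold change -0.55 ± 0.14 (SE), adjusted p = 0.0145). Its groups did not overlap, and its call was lost without sh-NC library 2 (adjusted p = 0.0903) or 3 (0.1003). FEN1 had 1667, 1617 and 1814 in sh-NC and 1041, 1356 and 1462 in sh-KLF5, likewise without overlap, and just missed the threshold (-0.41 ± 0.13 (SE), adjusted p = 0.0506), which it passed in 5 alternative fits, including DESeq2.

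Of the 4 genes of nucleotide supply, 1 was lower. TK1, the thymidine kinase of the salvage pathway, had normalized counts of 2879, 3294 and 3962 in sh-NC and 2426, 2068 and 2907 in sh-KLF5, in which sh-KLF5 library 3 lay above sh-NC library 1 (log2 fold change -0.46 ± 0.14 (SE), adjusted p = 0.0483). This call was lost in 7 alternative fits, including those without sh-NC library 2 (adjusted p = 0.143) or 3 (0.237) and without sh-KLF5 library 1 (0.0785) or 2 (0.194). TYMS, which makes thymidylate, had 965, 976 and 1142 in sh-NC and 629.9, 869 and 887 in sh-KLF5, without overlap (log2 fold change -0.38, adjusted p = 0.0936). The subunits of ribonucleotide reductase, RRM1 and RRM2, had log2 fold changes of -0.25 (95% interval -0.50 to 0.00) and -0.23 (-0.50 to 0.05). Exons of other genes cover 46.6% of the exonic bases of TYMS, mostly those of ENOSF1 on the opposite strand, and 20.2% of those of RRM2.

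CLSPN encodes claspin, which carries the checkpoint signal from stalled forks, and had normalized counts of 1428, 1483 and 1341 in sh-NC and 944, 1054 and 1229 in sh-KLF5 (log2 fold change -0.41 ± 0.12 (SE), adjusted p = 0.0393). The groups did not overlap, and the call was lost without any 1 of the sh-NC libraries (adjusted p = 0.141, 0.186 and 0.0818 without library 1, 2 and 3) and without sh-KLF5 library 2 (0.101). TIMELESS, which protects the fork together with claspin, had 4014, 4381 and 4499 in sh-NC and 2959.8, 3601 and 3954 in sh-KLF5 and did not pass the threshold (-0.30, adjusted p = 0.131).

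CHAF1A and CHAF1B are the large and middle subunits of CAF-1, which places new histones on the DNA behind the fork, and both were lower. CHAF1B (ENSG00000159259, chromosome 21, 36385378 to 36419015, + strand) had normalized counts of 1002, 1078 and 1128 in sh-NC and 674, 664 and 686 in sh-KLF5. The sh-KLF5 libraries of CHAF1B were nearly equal and held 63.1% of the control mean (log2 fold change -0.66 ± 0.11 (SE), adjusted p = 7.71e-04). CHAF1A had 1069, 1186 and 1237 in sh-NC and 617, 834 and 878 in sh-KLF5, with sh-KLF5 library 1 the lowest (-0.60 ± 0.14 (SE), adjusted p = 0.00845), and its call was lost without sh-NC library 2 (adjusted p = 0.0509) or 3 (0.0619). UHRF1, which keeps DNA methylation on the new strand, had 1474, 1373 and 1636 in sh-NC and 1036, 1249.8 and 1349.6 in sh-KLF5, without overlap, and did not pass (-0.31, adjusted p = 0.132).

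Of the 4 G1/S control genes of the group, 2 were lower. E2F1 (ENSG00000101412, chromosome 20, 33675683 to 33686404, - strand) and E2F2 (ENSG00000007968, chromosome 1, 23506430 to 23531220, - strand) encode activators of S-phase transcription, and their promoter letters are printed above. E2F1 had normalized counts of 1350.1, 1445 and 1568 in sh-NC and 899, 959 and 1064 in sh-KLF5 (log2 fold change -0.58 ± 0.12 (SE), adjusted p = 0.00306). E2F2 had 507, 536 and 612 in sh-NC and 249, 309 and 409 in sh-KLF5 (-0.80 ± 0.17 (SE), adjusted p = 0.00375). In both genes library 1 was the lowest and library 3 the highest of the sh-KLF5 libraries, without overlap with sh-NC. CCNE1, which encodes cyclin E1, the partner of CDK2 at the G1/S boundary, had 507, 397 and 471 in sh-NC and 576, 658 and 596 in sh-KLF5, and was the only member with all sh-KLF5 libraries above all sh-NC libraries. Its log2 fold change of 0.42 ± 0.13 (SE) just missed the threshold (adjusted p = 0.0504), and passed it in 6 alternative fits. CCNE2, the gene of the second E-type cyclin, had 294, 265 and 212 in sh-NC and 248, 215 and 234 in sh-KLF5, with overlapping groups (log2 fold change -0.14, 95% interval -0.48 to 0.20), and 37.1% of its exonic bases are shared with exons of the opposite strand.

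Levels between genes were compared as normalized counts per kilobase of exonic length in sh-NC. They ranged from 38.6 in POLA2 to 1815 in TK1. Subunits of a complex did not have equal mRNA levels per kilobase. Within MCM2-7 the level was 487 for MCM5 and 1645 for MCM7, a ratio of 3.37, and within GINS it was 88.0 for GINS3 and 291 for GINS2, a ratio of 3.30. The 5 subunits of replication factor C were closer, from 247 for RFC1 to 351 for RFC2, a ratio of 1.42. These levels hold for the annotated exons as a whole, which may be longer than the transcripts in these cells.

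Outside the 49 genes, 39 other replication factors were examined, of which 4 were lower and 0 higher, with a median log2 fold change of -0.16. This is 10.3% of the list, beside 6.85% of all tested genes. At an unadjusted p under 0.05, 9 were lower and 0 higher, beside 13.4% and 12.8% of all tested genes, and edgeR and DESeq2 each called 4 lower and 0 higher. TICRR, also called treslin, which helps load CDC45, had normalized counts of 2543, 2785 and 2614 in sh-NC and 1484, 1652 and 1779 in sh-KLF5 (log2 fold change -0.69 ± 0.11 (SE), adjusted p = 5.18e-04). MCM8, a helicase related to MCM2-7 and used in recombination, had 1341, 1399 and 1292 in sh-NC and 865, 839 and 1039.8 in sh-KLF5 (-0.56 ± 0.12 (SE), adjusted p = 0.00449). DBF4B, a second activator of CDC7, had 581, 729 and 684 in sh-NC and 404, 496 and 473 in sh-KLF5 (-0.54 ± 0.14 (SE), adjusted p = 0.0140), and lost its call without sh-NC library 2 (adjusted p = 0.108) or 3 (0.0707). The groups did not overlap in any of these 3 genes.

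Among 28 further regulators of the G1/S transition, 3 were lower and 3 were higher, with a median log2 fold change of -0.07. Each direction held 10.7% of the list, beside 6.85% lower and 6.04% higher among all tested genes. At an unadjusted p under 0.05, 7 were lower and 4 higher, beside 13.4% and 12.8% of all tested genes. EdgeR and DESeq2 each called 3 lower and 3 higher. The 3 genes higher by adjusted p in limma included an inhibitor of cyclin-dependent kinases. CDKN1A, which encodes p21, had normalized counts of 1759, 1321 and 1532 in sh-NC and 6529, 5829 and 4022 in sh-KLF5 (log2 fold change 1.81 ± 0.16 (SE), adjusted p = 1.20e-06). CCND1, the gene of cyclin D1, had 1629, 1379 and 1511 in sh-NC and 2619, 2515 and 2714 in sh-KLF5 (0.80 ± 0.11 (SE), adjusted p = 1.29e-04). E2F7, which encodes a repressor of E2F targets, had 1318, 1393 and 1240.4 in sh-NC and 1841, 1733 and 1534 in sh-KLF5 (0.37 ± 0.12 (SE), adjusted p = 0.0478). The groups did not overlap in these genes, but the call of E2F7 was lost in 7 alternative fits, with an adjusted p up to 0.169 without sh-NC library 3. The other sh-NC libraries and sh-KLF5 library 2 did the same when left out (0.163, 0.116 and 0.116 without sh-NC library 1, sh-NC library 2 and sh-KLF5 library 2).

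Of the lower genes, CCND2, the gene of cyclin D2, had normalized counts of 1011, 514 and 601 in sh-NC and 11.2, 11.6 and 25.1 in sh-KLF5 (log2 fold change -5.42 ± 0.30 (SE), adjusted p = 7.28e-09). CDKN1C, which encodes the kinase inhibitor p57, had 533, 443 and 521 in sh-NC and 106, 138 and 106 in sh-KLF5 (-2.09 ± 0.16 (SE), adjusted p = 2.92e-07). CCNA2, which encodes cyclin A2 of S phase and G2, had 1939, 2108 and 2157 in sh-NC and 1409.6, 1172 and 1413 in sh-KLF5 (-0.64 ± 0.12 (SE), adjusted p = 0.00138). Kinase inhibitors were thus found on both sides, p21 higher and p57 lower, and so were the D-type cyclins.

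**Figure D5:**
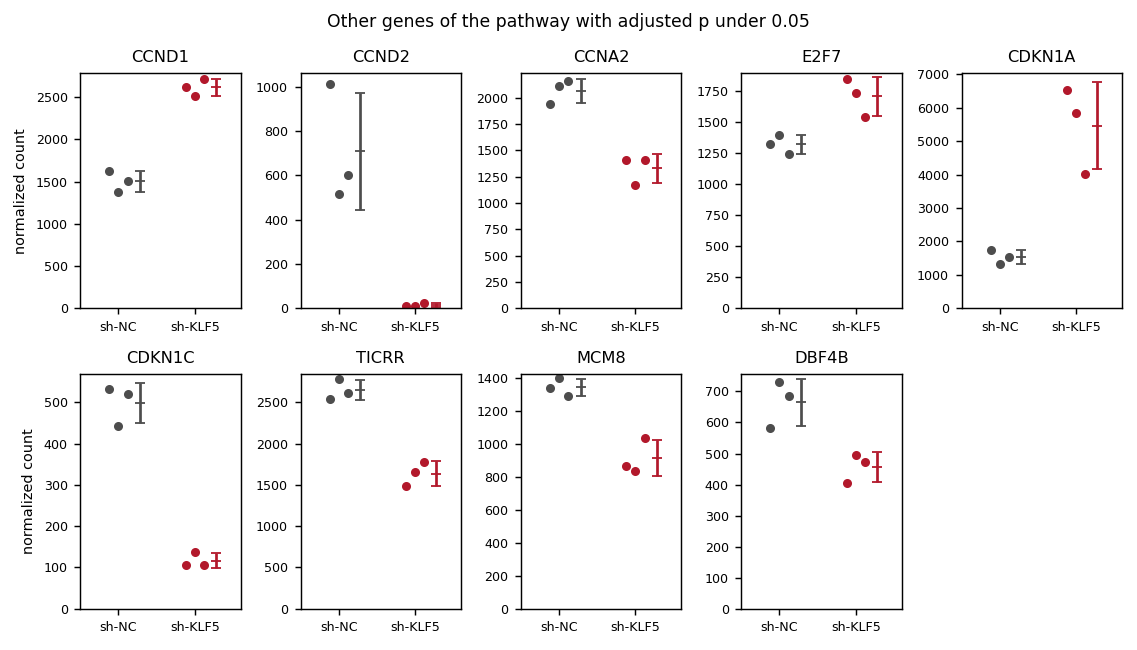
Normalized counts of the G1/S regulators and other replication factors described in the text, all with an adjusted p under 0.05, with 1 point per library (replicates 1 to 3 from left to right) and the mean with its SD (n = 3 per group), on axes that start at 0. CCND1, E2F7 and CDKN1A are higher in all 3 sh-KLF5 libraries than in any sh-NC library, and the other 6 genes are lower.

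Of 10 genes of the replication checkpoint, 0 passed the threshold in limma, edgeR or DESeq2, and 0 had an unadjusted p under 0.05. Over all tested genes in limma, 6.85% were lower and 6.04% higher by adjusted p, and 13.4% and 12.8% at an unadjusted p under 0.05. Whether this short list differed from these shares was not tested. The median log2 fold change of the 10 genes was 0.19, and 8 of the 10 were positive, beside 7852 of the 15803 tested genes. Of 22 mitotic genes, 3 were lower and 0 higher, with a median of -0.20. The 3 were 13.6% of the list, beside 6.85% of all tested genes, and edgeR and DESeq2 called the same numbers. At an unadjusted p under 0.05, 6 were lower and 0 higher, beside 13.4% and 12.8% of all tested genes. MKI67, the gene of the proliferation antigen Ki-67, had normalized counts of 18428, 21355 and 18862 in sh-NC and 7769, 11465 and 15929 in sh-KLF5 (log2 fold change -0.80 ± 0.20 (SE), adjusted p = 0.0149). Its sh-KLF5 libraries were far apart, and without library 1 the log2 fold change was -0.53, while the call was lost without sh-NC library 2 (adjusted p = 0.0639) or 3 (0.0522). The spindle genes KIF11 (-0.44, adjusted p = 0.0307) and TPX2 (-0.44, adjusted p = 0.0343) were lower as well, and each lost its call in the fits without sh-NC library 1 (0.0589 and 0.0607), 2 (0.173 and 0.127) or 3 (0.112 and 0.165) or sh-KLF5 library 2 (0.133 and 0.135). Of the 22 genes, 19 had a negative log2 fold change, beside 7951 of the 15803 tested genes. The exceptions, named here after their values were seen, were CCNB1 (0.10), CDK1 (0.15) and UBE2C (0.13), which did not pass the threshold.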

How the data were processed

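RNA-seq was analysed for 3 sh-KLF5 and 3 sh-NC libraries of SKOV3 cells, made from polyA RNA and grouped by their sample titles. The values deposited by the authors are a signal, a normalized count for each of 29185 genes in each library, in which the reads of a library were scaled by a single factor. Columns with group means, a log2 fold change and p-values from the authors' own comparison stood beside them and were not used. Per the submitters' processing notes, the tools were HISAT2 2.0.5, featureCounts 1.5.0-p3 and DESeq2 1.20.0, with the build hg38, and whether counting used strand is not given in the sources used here.

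In each library the smallest non-zero value was taken as 1 read, and 100% of the values were then whole numbers of reads within 1e-06, which gave 15852319 to 17543896 reads per library. The limit set by a count of 0 is 3 reads and covers counting error only. No 2 libraries of a group were repeats of each other within sampling noise (the chi-square statistic divided by its degrees of freedom was 4.33 to 30.4). It was 4.33 to 8.41 within sh-NC. Within sh-KLF5 it was 10.4 between libraries 2 and 3, and 23.5 and 30.4 for library 1 against libraries 2 and 3. Because the deposited values were not raw counts, limma 3.58.1 (R 4.3.3) with a trended, robust empirical Bayes fit and no covariate was used on log2(normalized count + 1) for the 15803 genes that passed the filterByExpr function of edgeR 4.0.16 with a minimum count of 10, with Benjamini-Hochberg adjustment over these genes and a threshold of 0.05. The fold threshold was 1 on the log2 scale, the one in the methods of the study. Fold changes on this scale understate the change of genes with few reads. The scripts were tested on simulated data.

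Alternatives were count tests on the recovered reads (edgeR and DESeq2 1.42.0), other scalings, pseudocounts and filters, the replicate number as a block, and leaving out each library. The members, the other gene lists, the motifs and the tests were chosen with earlier results of these data known. The text names KLF5, all members and at most 6 genes of each list, those past the threshold with the smallest p, and marker genes by their levels, and a few genes covered by this rule are not reported here. Exon overlaps were taken from GENCODE release 29, whose coordinates matched those of all 49 members, and promoters from RefSeq (GRCh38.p14). A search for a PCNA-binding peptide in the proteins was planned and not run. Plots were made in Python 3.11.15 (matplotlib 3.10.9).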

Additional observations from a re-analysis of the deposited data

How the results depend on the processing

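The number of members lower in sh-KLF5 (23) stayed between 22 and 28 under the 9 alternatives that kept all libraries, and ranged from 10 to 27 with 1 library left out, where fewer samples enter the fit. The number of higher members was 0 and became 1 (CCNE1) with edgeR, DESeq2, TMM factors, a pseudocount of 5 and the replicate block, and ranged from 0 to 1 with 1 library left out. The number of members past the fold threshold (1 lower) ranged from 0 to 1 with 1 library left out, and the cause was not tested. Over all tested genes, 1083 were lower and 955 higher, with ranges from 699 to 1514 and from 518 to 1272 with 1 library left out. The median of the members was between -0.44 and -0.32 in every fit, and KLF5 between -1.62 and -1.48. The sign of 5 members turned with 1 library left out, and their log2 fold changes then ranged from -0.317 to 0.0265 for RFC3, from -0.321 to 0.0302 for PRIM1 (both positive without sh-KLF5 replicate 2, while RFC3 passed the threshold without sh-KLF5 replicate 1, adjusted p = 0.0479), from -0.00201 to 0.0338 for RFC4 (negative without sh-NC replicate 3), from -0.109 to 0.188 for GMNN (negative without sh-KLF5 replicate 1) and from -0.209 to 0.0243 for POLE2 (positive without sh-NC replicate 2, sh-KLF5 replicate 2 or sh-KLF5 replicate 3). Of the 23 members past the threshold, 9 passed in all 16 fits, and 16 of the 49 passed in none.

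Libraries with the same replicate number were not treated as pairs in the main fit. Their deviations from the group means correlated with r = 0.059, 0.033 and 0.050. With 3 libraries per group, these values cannot decide whether the libraries were paired. With the replicate block, 28 members were lower and 1 higher. Over all tested genes the block gave 1383 lower and 1292 higher, against 1083 and 955 without it. The filter without a minimum tested 29185 genes, and the one with at least 10 reads in every library 13951. The members had at least 176 reads in every library, and the part of depth in their errors was not tested.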
